A study of Homo sapiens with 4 samples.

Results

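Hsa-miR-1269 and hsa-miR-1269b are 2 of the 1733 mature miRNAs counted in small RNA libraries of human hepatoma cells and of the stem-like cells derived from them. They were taken by name, as a pair of near-identical miRNAs that the study lists among those raised in both stem-like lines, so their levels and their change in stem-like cells are given as a description with no test. Hep3B and Huh7 are hepatocellular carcinoma (HCC) cell lines, and Hep3B-C and Huh7-C are the hepatic cancer stem cell (HCSC) lines enriched from them in culture, by steps not given in the sources used here. The sources used here name no drug, knockdown or time point for any of the 4 groups. Each line had 1 library, with no replicates, so a difference between HCSCs and HCC cells cannot be told apart from one between single cultures or library preparations.

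A miRNA is a short RNA that guides an Argonaute protein to mRNAs, and its seed, bases 2 to 8 counted from the 5′ end, does most of the pairing with the target. As background, miR-1269 is known as a miRNA raised in hepatocellular and colorectal carcinoma. SMAD7 and HOXD10, which restrain TGF-β signalling and invasion, and FOXO1, a growth-restraining transcription factor, have been described as its targets. Targets were not measured in the data used here.

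The sequences are shown first because the 2 rows differ by 1 base. In RefSeq the row hsa-miR-1269 corresponds to hsa-miR-1269a, matched through the older name of its gene MIR1269A. Capitals mark the seed and base 13, where the mature sequences differ.
hsa-miR-1269: cUGGACUGagccGugcuacugg
hsa-miR-1269b: cUGGACUGagccAugcuacugg
The mature forms are both 22 bases long, share 21 bases and differ by the substitution G13A (miR-1269 first, position 13 counted from the 5′ end). Both carry the seed UGGACUG, and of 2370 mature miRNAs in the RefSeq table only these 2 carry it. The next nearest mature sequences were hsa-miR-3663-5p and hsa-miR-943, each 7 edits away from miR-1269, and hsa-miR-6078, 7 edits away from miR-1269b, with hsa-let-7g-3p next at 8 edits.

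The hairpins are shown because the near-identical mature sequences lie at opposite ends of them. Capitals mark the mature miRNA.
MIR1269A: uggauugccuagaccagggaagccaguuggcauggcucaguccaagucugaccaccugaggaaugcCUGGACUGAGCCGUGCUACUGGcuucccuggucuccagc
MIR1269B: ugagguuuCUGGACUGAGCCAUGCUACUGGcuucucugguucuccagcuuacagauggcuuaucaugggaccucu
In MIR1269A, of 105 bases, the mature miRNA runs from base 67 to base 88, towards the 3′ end. In MIR1269B, of 75 bases, it runs from base 9 to base 30, towards the 5′ end. From the first mature base to the end of the MIR1269A hairpin, 39 bases aligned to 40 bases of MIR1269B with 3 edits, so the likeness extends beyond the mature sequence. RNAfold, which predicts the most stable fold of an RNA, gave MIR1269A a free energy of -70.5 kcal/mol with 21 of the 22 mature bases paired. MIR1269B had -29.9 kcal/mol with 14 of 22 paired. These are predictions from the reference sequence and not measurements.

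The genes are on different chromosomes. On GRCh38, MIR1269A lies at chr4:66276824-66276928 on the plus strand and overlaps no other gene of GENCODE release 29. Its nearest protein-coding genes are EPHA5, 606 kb away, and CENPC, 1192 kb away. MIR1269B lies at chr17:12917268-12917342 on the minus strand, inside ARHGAP44, which is on the plus strand, and in none of its annotated exons.

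The Hep3B library held 1739278 miRNA counts and Hep3B-C 5430195, with 5741567 for Huh7 and 4045199 for Huh7-C. Levels are given as TPM, here a count divided by the library's total reads, times 1000000. In this unit 1 read was worth between 0.0596 (Hep3B) and 0.0941 TPM (Huh7). MiRNA counts made up 10.4% of the total reads in Hep3B and 54.1% in Huh7, with 35.2% in Hep3B-C and 37.8% in Huh7-C, so that the choice between total reads and miRNA counts as library size moves every comparison. The hepatocyte miRNA hsa-miR-122 stood at 23.7 TPM in Hep3B and 9708 TPM in Hep3B-C, against 46077 TPM in Huh7 and 13515 TPM in Huh7-C. Hsa-miR-192, also abundant in hepatocytes, was at 10671 TPM or more in each library. Of 6 blood cell miRNAs, the summed level was at most 0.477 TPM in 3 libraries and 74.9 TPM in Huh7, where the erythroid hsa-miR-451 had 773 of the 796 counts. Hsa-miR-150 and hsa-miR-144 had 0 counts in every library. The Huh7 library also held the lowest level of both miR-1269 forms, and a part of the blood cell signal in that result was not tested. Both markers of endothelial cells were detected in each library, summing to between 52.2 TPM in Hep3B and 208 TPM in Huh7. Of 3 mesenchymal markers, 1 or 2 were detected in a library, summing to between 1.40 TPM in Huh7-C and 111 TPM in Hep3B-C.

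Hsa-miR-1269 was well detected in Hep3B and Hep3B-C, at 0.0451% and 0.118% of the miRNA counts, and close to the limit of detection in Huh7. It had 784 counts (46.7 TPM, 95% exact Poisson interval 43.5 to 50.1) in Hep3B and 6426 counts (416 TPM, 406 to 426) in Hep3B-C. In Huh7 it had 3 counts (0.282 TPM, 0.0582 to 0.825), and in Huh7-C 103 counts (9.61 TPM, 7.85 to 11.7). The order of the levels was thus Huh7, Huh7-C, Hep3B, Hep3B-C, with no overlap between the counting intervals of neighbours. Intervals here and below cover counting error only. By abundance it ranked 81 of 674 detected miRNAs in Hep3B and 52 of 773 in Hep3B-C, then 530 of 712 in Huh7 and 167 of 664 for Huh7-C.

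Hsa-miR-1269b was present in each of the 4 libraries, and its range was narrower than that of hsa-miR-1269. It had 896 counts (53.4 TPM, interval 49.9 to 57.0) in Hep3B and 8787 counts (569 TPM, 557 to 581) in Hep3B-C. In Huh7 it had 176 counts (16.6 TPM, 14.2 to 19.2), and in Huh7-C 1066 counts (99.5 TPM, 93.6 to 106). On the TPM scale the order was Huh7, Hep3B, Huh7-C, Hep3B-C, again without overlap of the intervals. Per 1000000 miRNA counts the order of the middle libraries changed, with 515 in Hep3B and 264 in Huh7-C, against 30.7 in Huh7 and 1618 in Hep3B-C. For hsa-miR-1269 the order was the same on both scales, with values per 1000000 miRNA counts of 0.523 in Huh7, 25.5 in Huh7-C, 451 in Hep3B and 1183 in Hep3B-C.

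**Figure D1:**
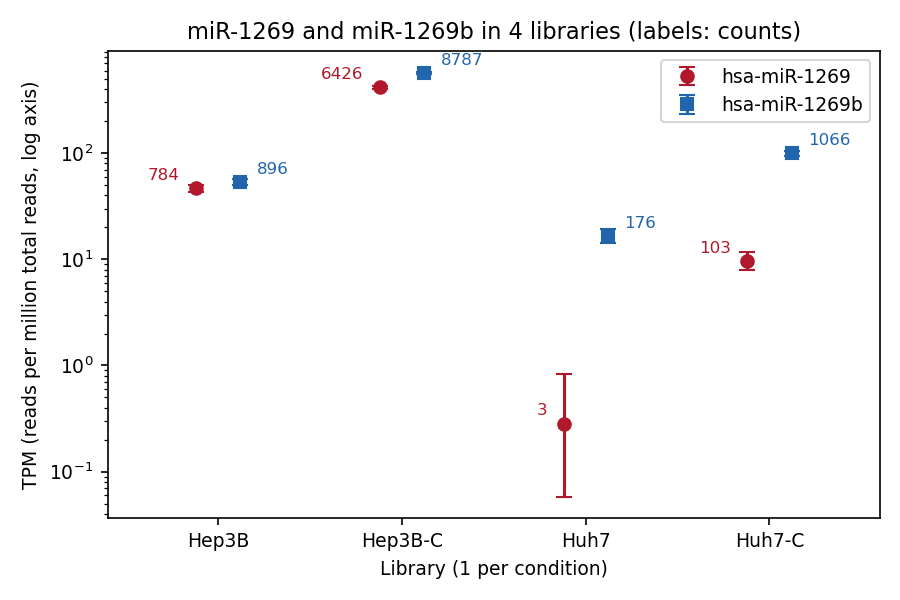
TPM of hsa-miR-1269 (circles) and hsa-miR-1269b (squares) on a log axis in each of the 4 libraries, with exact Poisson intervals of 95% as bars and the read counts beside the points. The forms lie close together in Hep3B and Hep3B-C and far apart in Huh7 (3 against 176 counts) and Huh7-C (103 against 1066 counts).

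HCSCs were compared with the HCC cells they came from, to ask which miRNAs change in stem-like cells. Both forms were higher in the HCSCs of both lines. In the Hep3B pair hsa-miR-1269 was 8.91-fold higher in Hep3B-C, a log2 ratio of 3.16 (exact binomial 95% interval 3.05 to 3.26). Hsa-miR-1269b was 10.7-fold higher, a log2 ratio of 3.41 (3.31 to 3.51). In the Huh7 pair hsa-miR-1269 was 34.0-fold higher in Huh7-C, a log2 ratio of 5.09, with a wide interval of 3.50 to 7.39 because the Huh7 level rests on 3 counts. Hsa-miR-1269b was 6.0-fold higher, a log2 ratio of 2.59 (2.35 to 2.82).

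These ratios need to be read against the whole library. Among the 475 miRNAs that reached 10 counts in Hep3B or Hep3B-C, 66.5% were higher in Hep3B-C by a log2 ratio of at least 1. The same rise in Huh7-C over Huh7 was seen in 7.42% of 431 miRNAs. Hsa-miR-1269 passed this minimum in the Huh7 pair only through Huh7-C. The median log2 ratio of these miRNAs, with 0.5 counts added, was 1.42 for Hep3B-C over Hep3B and -0.66 for Huh7-C over Huh7. Treated in the same way, hsa-miR-1269 stood 1.73 above the first median and hsa-miR-1269b 1.99 above it. They stood 5.54 and 3.25 above the second. For Hep3B-C, 70 of 475 miRNAs had a ratio at least as high as hsa-miR-1269, itself included, and 52 at least as high as hsa-miR-1269b. For Huh7-C these numbers were 2 and 10 of 431.

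A rise of at least 1 on the log2 scale in both pairs was found in 15 of 359 miRNAs with at least 10 counts in a library of each pair, or 4.18%. Ordered by the smaller of the 2 log2 ratios, hsa-miR-1269 came first (3.15) and hsa-miR-1269b second (2.58) among these 359. With total miRNA counts as library size they took places 6 and 4, with hsa-miR-378 at the top and hsa-miR-215 next. With edgeR TMM library sizes they took places 3 and 2, and with DESeq2 size factors 5 and 2. Hsa-miR-338-5p, also on the study's list, was at the top with TMM and with DESeq2 factors. Their place at the top thus depends on the library size. The selection of both miR-1269 forms used these same ratios, and the places are therefore no evidence of their own.

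**Figure D2:**
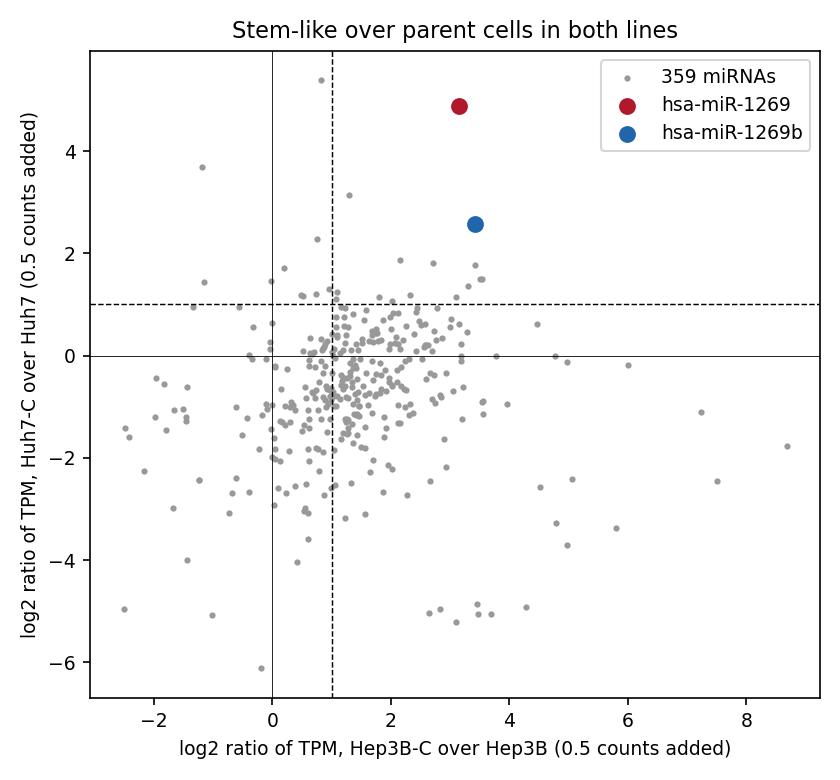
Log2 ratio of TPM, Hep3B-C over Hep3B (x axis) against Huh7-C over Huh7 (y axis), with 0.5 counts added, for the 359 miRNAs with at least 10 counts in a library of each pair. The dashed lines mark a log2 ratio of 1. Hsa-miR-1269 and hsa-miR-1269b lie in the upper right field with 13 other miRNAs, and most other points lie to the right of 0 and below it.

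The library size set the height of the ratios in the Hep3B pair. With total miRNA counts as library size, the log2 ratio of hsa-miR-1269 was 1.39 and that of hsa-miR-1269b 1.65, while the median of all miRNAs moved to -0.34. For Huh7-C over Huh7 the same choice raised them to 5.61 and 3.10, with the median at -0.15. Of the miRNAs past a log2 ratio of 1 in either direction in the Hep3B pair, 316 were higher and 24 lower with total reads, and 92 were higher and 119 lower with total miRNA counts. For Huh7-C over Huh7, 32 were higher and 161 lower with total reads, and 66 and 105 with total miRNA counts. Both miR-1269 forms stayed above a log2 ratio of 1 in both pairs under each of the 4 library sizes tried.

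**Figure D3:**
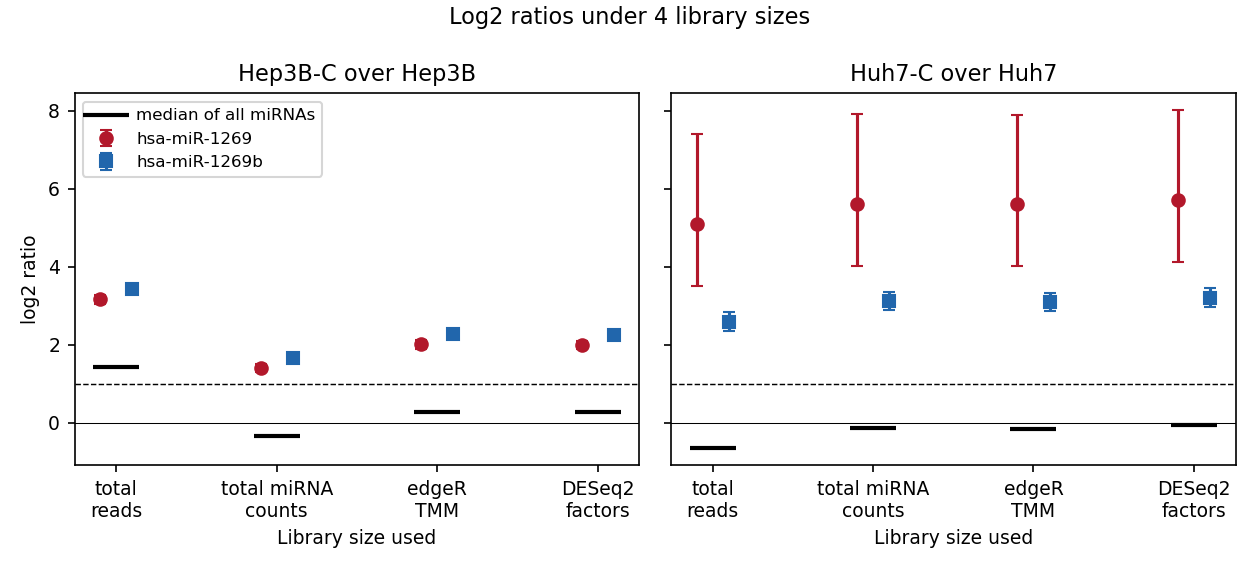
Log2 ratio of HCSCs over HCC cells in the Hep3B pair (left) and the Huh7 pair (right) under 4 library sizes, with exact binomial intervals of 95% as bars. Black bars give the median of all miRNAs that reached 10 counts in either library (475 and 431), with 0.5 counts added. Hsa-miR-1269 falls from 3.16 to 1.39 and hsa-miR-1269b from 3.41 to 1.65 in the left panel when total miRNA counts replace total reads, and both lie above the dashed line at 1 throughout.

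The parent lines differed in hsa-miR-1269 far more than in hsa-miR-1269b. Hsa-miR-1269 was 165-fold lower in Huh7 than in Hep3B, a log2 ratio of -7.37 (interval -9.65 to -5.82, resting on 3 counts). Hsa-miR-1269b was 3.22-fold lower, a log2 ratio of -1.69 (-1.93 to -1.45). A log2 ratio of at least 1 lower in Huh7 was seen in 18.3% of 476 miRNAs, whose median was 1.59 higher in Huh7. In the HCSC lines hsa-miR-1269 was 43.3-fold lower in Huh7-C than in Hep3B-C (log2 ratio -5.44, -5.73 to -5.16) and hsa-miR-1269b 5.72-fold lower (-2.52, -2.61 to -2.42), where 46.8% of 502 miRNAs were at least 1 lower. The size of the line difference moved with the library size. With total miRNA counts the log2 ratio of hsa-miR-1269b between the parents was -4.07 in place of -1.69. Among all miRNAs of the parent comparison, 275 were higher and 87 lower in Huh7 with total reads, against 118 and 226 with total miRNA counts.

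The ratio between the 2 forms does not depend on the library size. Hsa-miR-1269 made up 46.7% of the 1680 counts of both forms in Hep3B (95% Clopper-Pearson interval 44.3 to 49.1) and 42.2% of 15213 counts in Hep3B-C (41.5 to 43.0). In Huh7 it made up 1.68% of 179 counts (0.347 to 4.82), and in Huh7-C 8.81% of 1169 counts (7.25 to 10.6). The lines thus fell into near-equal use of both rows in Hep3B cells and a large excess of hsa-miR-1269b in Huh7 cells. The odds of a read being hsa-miR-1269 were 51.3-fold lower in Huh7 than in Hep3B (exact interval 17.1 to 252) and 7.57-fold lower in Huh7-C than in Hep3B-C (6.16 to 9.38). Between HCSCs and HCC cells the share moved in opposite directions. The odds were 1.20-fold lower in Hep3B-C than in Hep3B (1.08 to 1.33) and 5.66-fold higher in Huh7-C than in Huh7 (1.85 to 28.2).

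**Figure D4:**
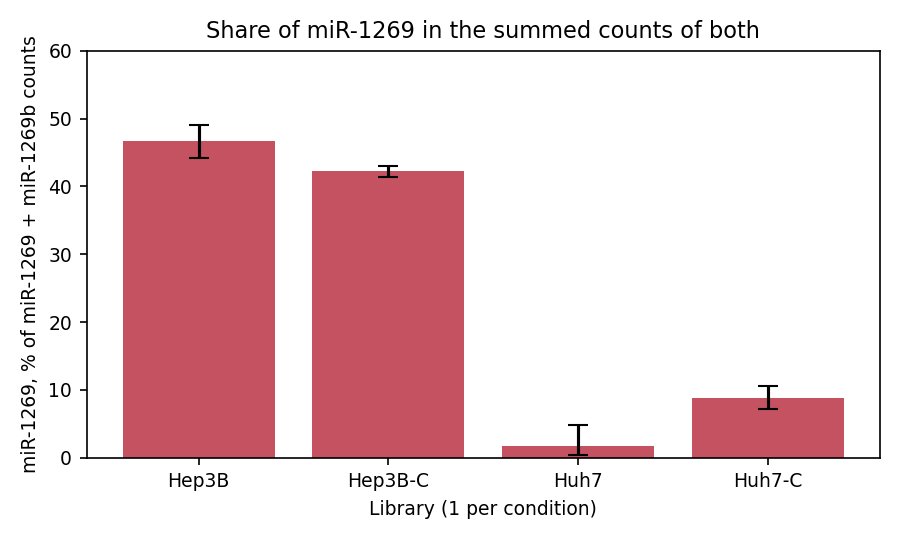
Share of hsa-miR-1269 in the summed counts of hsa-miR-1269 and hsa-miR-1269b in each library, in percent, with Clopper-Pearson intervals of 95% as bars. The Hep3B and Hep3B-C libraries stand at 46.7% and 42.2%, and Huh7 and Huh7-C at 1.68% and 8.81%.

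How the study assigned reads that match both rows, and how many mismatches it allowed, is not given in the sources used here. For hsa-miR-199b-3p and its namesake hsa-miR-199a-3p, which share a mature sequence, the deposited counts were equal in each library (165 in Hep3B and 72 in Huh7, for example). Other rows of identical sequence were not compared. For the miR-1269 forms the rows differed by 112 counts in Hep3B and 2361 in Hep3B-C, with 173 in Huh7 and 963 in Huh7-C, always with more in hsa-miR-1269b. In Huh7 at least 173 of the 176 reads of hsa-miR-1269b were therefore not counted as hsa-miR-1269. Whether reads of one form were counted in the row of the other was not tested. Summed as 1 miRNA, the forms reached 100.1 TPM in Hep3B and 985 TPM in Hep3B-C, and 16.9 TPM in Huh7 and 109 TPM in Huh7-C. The sum had a log2 ratio of 3.30 (3.23 to 3.37) for Hep3B-C over Hep3B and of 2.69 (2.47 to 2.93) for Huh7-C over Huh7. The 34.0-fold ratio of hsa-miR-1269 in the Huh7 pair concerns 103 of the 1169 summed counts in Huh7-C. A read counted in both rows would enter the sums, and the shares above, more than once.

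To see how other miRNAs that are 1 base apart behaved in the same counts, the shift of the log2 count ratio between lines was computed for 13 such pairs, each with at least 10 counts in every library summed over its 2 miRNAs. The miR-1269 pair met this minimum in Huh7 through hsa-miR-1269b, and its shifts from or to Huh7 rest on the 3 counts of hsa-miR-1269 there. Nearly all of these pairs could be matched only after well-known guide arms were added to the names, a choice made after seeing the data. For hsa-miR-1269 over hsa-miR-1269b the shift from Hep3B to Huh7 was -5.68 without added counts (exact conditional interval -7.98 to -4.10). With 0.5 counts added, as for all shifts below, it was -5.46, place 4 of 13 in size. Larger shifts were those of hsa-miR-196a over hsa-miR-196b (11.46), miRNAs of the HOX clusters, hsa-miR-100 over hsa-miR-99a (7.48), and hsa-let-7a over hsa-let-7c (6.85), of the let-7 family of growth-restraining miRNAs. The smallest was 0.27, for hsa-miR-19a over hsa-miR-19b of the growth-promoting miR-17-92 cluster. From Hep3B-C to Huh7-C the shift of the miR-1269 pair was -2.91, seventh of 13. Within the Huh7 pair, from Huh7 to Huh7-C, it was 2.29, second of 13 after hsa-miR-27a over hsa-miR-27b (2.38). Within the Hep3B pair it was -0.26, twelfth of 13. Some of the pairs share a member, and they are not independent of each other.

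**Figure D5:**
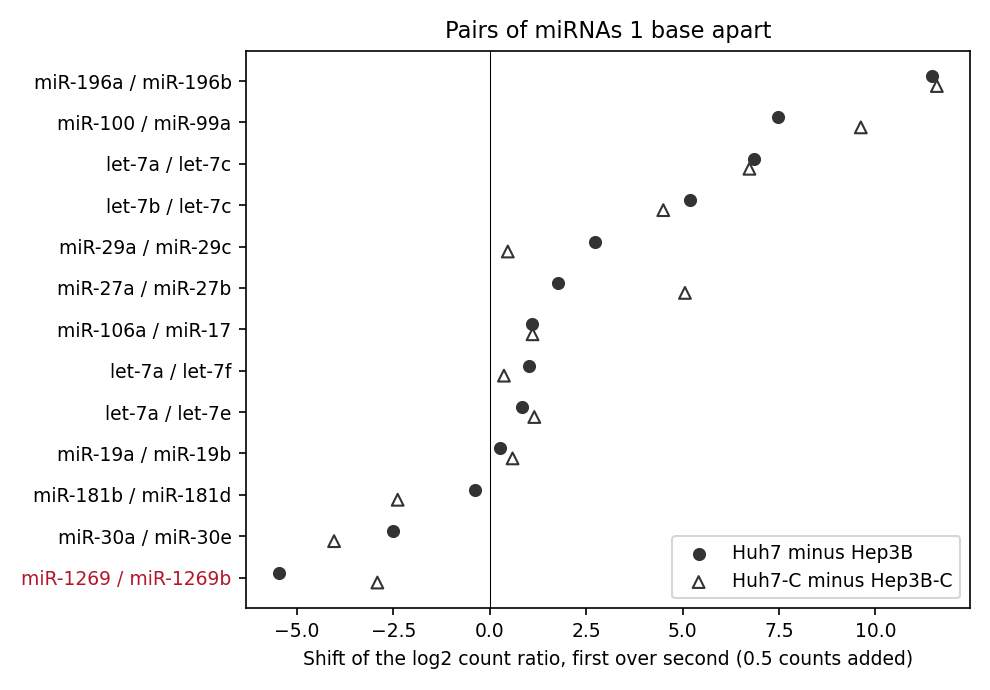
Shift of the log2 ratio of counts between the lines for 13 pairs of miRNAs that differ by 1 base, from Hep3B to Huh7 (filled circles) and from Hep3B-C to Huh7-C (open triangles), with 0.5 counts added. The miR-1269 pair (red label) stands at -5.46 between the parent lines, and 3 pairs have shifts larger in size. The sign of a shift depends on which miRNA of the pair is named first.

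By Euclidean distance the profiles of the 2 forms over the 4 libraries were not close to each other. Over the 443 miRNAs that reached 10 counts in 2 or more libraries, profiles were compared by the Euclidean distance between log2 values after the mean of each profile was subtracted. Hsa-miR-1269b was only the 24th nearest to hsa-miR-1269 (distance 4.49), and hsa-miR-1269 the 241st nearest to hsa-miR-1269b. This distance grows with the size of the changes, and the Huh7 value of hsa-miR-1269 rests on 3 counts. Both forms were lowest in Huh7 and highest in Hep3B-C. Their likeness to each other by Pearson correlation, which leaves out the size of the changes, is not given here. Nearest to hsa-miR-1269b were hsa-miR-215 (0.90), a p53-responsive miRNA of the miR-192 family, and hsa-miR-375 (1.09), known from pancreatic islets. Hsa-miR-215 had 1517 counts in Hep3B and 15756 in Hep3B-C, against 325 in Huh7 and 923 in Huh7-C, and hsa-miR-375 had 3452, 31379, 1573 and 4060 in the same order. Both are on the study's list of miRNAs raised in both HCSC lines, which was chosen on these libraries. Next came hsa-miR-4461 (1.10), hsa-miR-1228* (1.28) and hsa-miR-3149 (1.41).

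Hsa-miR-1269 had no neighbour as near. The closest was the pancreatic hsa-miR-217, at a distance of 2.95, with 240, 527, 1 and 3 counts in the same order of libraries. Hsa-let-7c followed (3.40), with 26250, 87854, 118 and 194 counts. Hsa-miR-216b (3.47), hsa-miR-1295 (3.55) and hsa-miR-370 (3.55) had 0 counts in both Huh7 and Huh7-C. All 5 had fewer counts in Huh7 and Huh7-C than in Hep3B and Hep3B-C, a pattern favoured by choosing them for their likeness to hsa-miR-1269. The choice of neighbours depends on the measure of likeness, since by Pearson correlation 0 of these 5 and 2 of the 5 named for hsa-miR-1269b were among the 5 nearest.

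Of 3 lists of other miRNAs, the 7 that the study also selected as raised in both HCSC lines were all past a log2 ratio of 1 in both pairs, as their selection requires, with medians of 3.30 and 1.49. The most abundant of them, hsa-miR-378, a miRNA from a metabolic host gene, had log2 ratios of 3.54 and 1.5. Hsa-miR-375 had 3.30 and 1.36, and hsa-miR-215 had 3.50 and 1.49. For Huh7-C over Huh7 both miR-1269 forms, at 5.09 and 2.59, were above these 3. For Hep3B-C over Hep3B, at 3.16 and 3.41, they were above neither hsa-miR-378 nor hsa-miR-215. Of 16 miRNAs often reported as raised in hepatocellular carcinoma, 14 were measured in the Hep3B pair. In Hep3B-C 6 of the 14 were at least 1 higher and 2 at least 1 lower (median 0.84). Over all miRNAs 66.5% were at least 1 higher and 24 of 475 at least 1 lower, with a median of 1.42. In Huh7-C 0 of 16 were at least 1 higher and 4 at least 1 lower (median -0.21). Over all miRNAs 7.42% were at least 1 higher and 161 of 431 at least 1 lower, with a median of -0.66. The most abundant of the 16 were hsa-miR-21, an oncogenic miRNA, with log2 ratios of 0.91 and -1.0, hsa-miR-182 (2.24 and -0.11) and hsa-miR-183 (2.12 and 0.22).

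The miRNAs numbered from hsa-miR-1178 to hsa-miR-1308 are neighbours of miR-1269 in the order of miRBase names. Apart from the miR-1269 forms, 106 rows carried such a number and 61 had a count in any library. In the Hep3B pair 21 of the 30 with at least 10 counts were at least 1 higher and 2 at least 1 lower (median 1.71). Of all miRNAs, 66.5% were at least 1 higher there and 24 of 475 at least 1 lower. For Huh7-C over Huh7, 2 of 22 were at least 1 higher and 5 at least 1 lower (median -0.63). Of all miRNAs, 7.42% were at least 1 higher there and 161 of 431 at least 1 lower. The most abundant of the 106 rows were hsa-miR-1299, with log2 ratios of 1.98 and 0.22, hsa-miR-1268b (3.54 and -0.90) and hsa-miR-1268 (3.55 and -0.89). Hsa-miR-1269b was the most abundant of all 108 such rows in Hep3B-C and hsa-miR-1269 the second. In Huh7 they ranked 8th and 31st.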

How the data were processed

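Small RNA was sequenced in 4 cell lines, 1 library each. The authors aligned with SOAP against NCBI Build 36.1 and took miRNAs from miRBase release 17, after discarding other small RNA classes. Their minimum read length was 18 nt, and contamination and redundancy were filtered before alignment. They deposited raw read counts of 1733 miRNAs per library, without normalization. Tool versions and mismatch limits are not given in the sources used here. TPM was computed from these counts and the total reads the study gives.

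The study's Poisson test was not used, since it chose the miRNAs described and each line had 1 library. Intervals (95%) are exact Poisson for levels, exact binomial for ratios between libraries, Clopper-Pearson for shares and exact conditional for odds. Only those for ratios between libraries were tried on simulated data, with counts drawn from the Poisson model that they assume. Alternatives were total miRNA counts, edgeR TMM or DESeq2 factors as library sizes, other count minimums, pseudocounts of 0.5 or 1 count or 1 TPM, summed rows, other pair minimums and another measure of likeness.

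The miRNAs and lists were chosen with earlier results of these data known. Named are the 2 miRNAs, the 5 nearest in profile to each, the 3 most abundant of each list, the 3 pairs with the largest shift, and the 2 nearest sequences. Further rows were named after their values were seen: hsa-miR-199a-3p with hsa-miR-199b-3p, hsa-miR-338-5p, the pairs hsa-miR-19a/hsa-miR-19b and hsa-miR-27a/hsa-miR-27b, and the single markers. Of the 1733 names, 1036 matched RefSeq (GRCh38.p14) mature sequences, and 1082 with guide arms added. Gene positions come from GENCODE release 29 and RefSeq on GRCh38. None was converted between builds. Python 3.11.15 (numpy 2.4.6, scipy 1.17.1, pandas 2.3.3, matplotlib 3.10.9), R 4.3.3 (edgeR 4.0.16, DESeq2 1.42.0) and RNAfold 2.7.2 were used.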

Additional observations from a re-analysis of the deposited data

Results flagged for a closer look

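The share of hsa-miR-1269 in the summed counts of both forms moved in opposite directions in the lines. It fell by 4.43 percentage points from Hep3B to Hep3B-C (46.7% to 42.2%) and rose by 7.13 percentage points from Huh7 to Huh7-C (1.68% to 8.81%). This difference was not tested, since with 1 library per line no replicate gives the spread of a change within a line, and the Huh7 share rests on 3 counts of hsa-miR-1269.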

How the results depend on the processing

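HCSCs and HCC cells of both lines were not fitted together with the line as a block, since the miRNAs were chosen on that contrast and their ratios are given without a test. The log2 ratios of both miRNAs kept their direction under the alternatives run. With total miRNA counts the median of all miRNAs changed sign for Hep3B-C over Hep3B (1.42 to -0.34) and for Huh7 over Hep3B (1.59 to -0.79), as did the balance of higher and lower miRNAs, and the order of hsa-miR-1269b in Hep3B and Huh7-C reversed. In the order Hep3B-C over Hep3B, Huh7-C over Huh7, Huh7 over Hep3B and Huh7-C over Hep3B-C, the log2 ratios of hsa-miR-1269b were 1.65, 3.10, -4.07 and -2.62 with total miRNA counts, 2.26, 3.09, -2.91 and -2.09 with TMM, and 2.25, 3.20, -3.11 and -2.16 with DESeq2 factors. For hsa-miR-1269 the values outside the main interval were 1.39, 2.00 and 1.99 in the Hep3B pair with total miRNA counts, TMM and DESeq2 factors, -9.75 between the parents with total miRNA counts, and -5.01 and -5.08 between the HCSC lines with TMM and DESeq2 factors. Adding 1 TPM gave 3.05 in the Huh7 pair and -5.22 between the parents. The summed rows gave 3.30, 2.69, -2.57 and -3.17. Counts of miRNAs past a log2 ratio of 1 moved too. In Hep3B-C, 92, 144 and 142 were higher with total miRNA counts, TMM and DESeq2 factors, 517 without a count minimum and 206 with 10 counts in both libraries, against 316. In Huh7-C these were 66, 64, 75, 112 and 20 against 32. Lower in Huh7 than in Hep3B were 226, 150, 156, 131 and 36 against 87, and lower in Huh7-C than in Hep3B-C were 399 without a minimum and 102 with 10 counts in both, against 235. Higher in both pairs were 23 with DESeq2 factors, against 15. Without the added guide arms the miR-1269 pair was the only 1-base pair with enough counts. By Pearson correlation, 0 of the 5 miRNAs nearest to hsa-miR-1269 and 2 of the 5 nearest to hsa-miR-1269b were shared with those named. Counting error is widest for hsa-miR-1269 in Huh7, where its 3 counts stand for 0.282 TPM. That library held 5741567 miRNA counts, against 1739278 in Hep3B.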
